A study of Mus musculus with 6 samples.

Results

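The genes that build tight junctions, gap junctions and desmosomes were followed in colon tumours of Trim21 knockout (KO) and wild-type (WT) mice. They were picked out by gene symbol, with earlier results of these data known, and 66 of the 26214 features in each count table belong to them. These are 25 claudins, 10 other tight junction genes, 16 connexins of the Gja, Gjb and Gjc families, 9 desmosomal cadherins and 6 desmosomal plaque genes. The KO group held 3 libraries from tumours of Trim21 −/− mice, and the WT group held 3 libraries from tumours of Trim21 +/+ mice. Mice of both groups had received azoxymethane (AOM), a carcinogen, and dextran sulfate sodium (DSS), which injures the colon lining. Ribosome-depleted total RNA was sequenced and reads were counted per gene. The labels call the samples of each group biological replicates. They state neither strain, age and sex nor how the allele was made, nor whether each sample came from a mouse of its own. The p-values therefore measure the spread between these samples, part of which may be technical.

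Epithelial cells of the colon are joined to each other by several kinds of contact. At the tight junction, claudins of neighbouring cells pair across the gap and set which ions and solutes pass, some sealing it and others forming pores. Occludin, its relatives and the junctional adhesion molecules lie in the same membrane strand, and zonula occludens proteins and cingulin tie it to actin. Connexins assemble into gap junction channels that let small molecules pass from cell to cell. Desmosomes hold cells together mechanically, through cadherins of the desmoglein and desmocollin families that plakoglobin, plakophilins and desmoplakin link to keratin filaments.

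KO libraries held between 17937821 and 19987295 counts, and WT libraries between 27085599 and 29742757. Trim21 itself measured 12.1, 18.9 and 12.8 CPM (counts scaled to library size) in KO replicates 1 to 3, against 29.7, 20.3 and 19.5 CPM in WT replicates 1 to 3. It was lower in every KO library but not absent, and did not pass the test (log2 fold change −0.67, standard error 0.24, edgeR adjusted p = 0.418). A count per gene cannot tell whether its remaining reads fall in a deleted part. Summed over 8 general epithelial markers, including Epcam and Krt8, the libraries held 7240 to 7361 CPM in the KO and 6882 to 7508 CPM in the WT. The tumours thus carried a similar share of epithelial marker RNA in both groups.

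Of the 29 members with a mean of 10 CPM or more, 24 (82.8%) had a log2 fold change within 0.3 of 0, a share close to the 80.5% of all genes at such levels. Among the others, Cldn8 was 2.18-fold higher in the KO and Cldn4 had a log2 fold change of −0.60. Cldn8, Cldn14, Jam3, Gjc1 and Cgn were higher in every KO library than in any WT library. Marveld3, F11r, Marveld2, Ocln, Gjb1 and Pkp2 were lower in every KO library. None of the 66 genes passed edgeR's quasi-likelihood test at an adjusted p under 0.05, so these are given as values. Of the 66 genes, 46 passed the filter on low counts and were tested. The test called 0 of the 46 members higher and 0 lower, and 0% of all 16281 genes tested were called in either direction. At an unadjusted p under 0.05, 4 members were higher in the KO, against 6.63% of all genes, and 3 were lower, against 4.12%. The groups did not overlap for 6 members that were higher and 6 that were lower, 13.0% of the tested members in each direction, against 9.43% and 8.47% of all genes. DESeq2, run as an alternative, called 1 member higher (Cldn8) and 1 lower (Marveld3). It called 1.61% of all genes higher and 0.596% lower. The median log2 fold change was −0.00071 over the tested members and −0.01 over all genes.

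**Figure D1:**
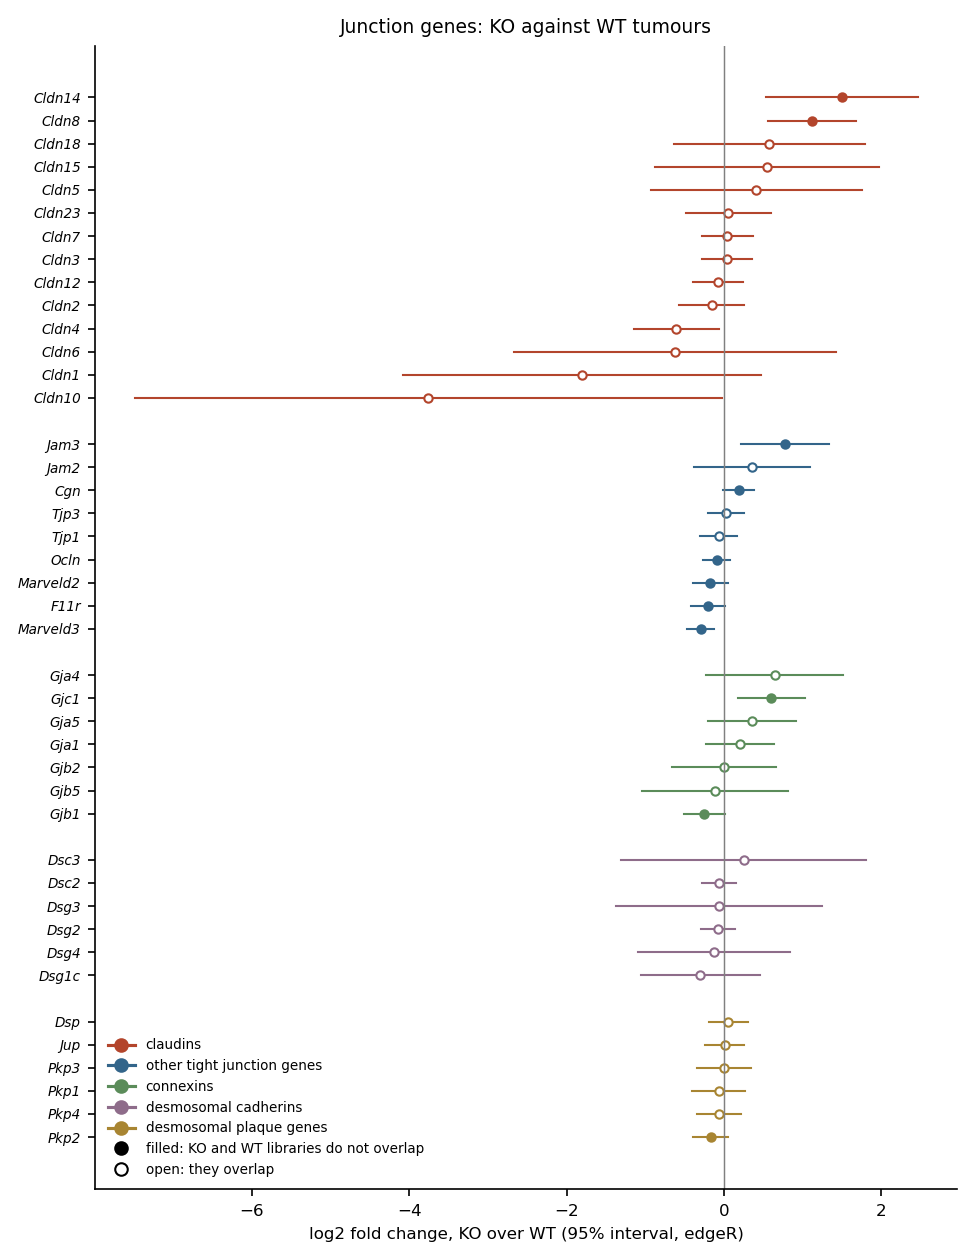
Log2 fold change of KO over WT for tested junction genes, by role, with 95% intervals from edgeR; filled points mark genes whose KO and WT libraries do not overlap. Desmosomal plaque genes all lie between −0.17 and 0.05, whereas claudins spread from −3.76 for Cldn10 to 1.5 for Cldn14.

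Levels were compared between genes as CPM per kilobase of exon, averaged over the 6 libraries. The desmosomal plaque gene Dsp had the highest average, at 122.8 CPM per kilobase. The claudins Cldn4 at 105, Cldn7 at 102, Cldn2 at 99.7 and Cldn3 at 97.5 CPM per kilobase followed close together. Their values overlapped between libraries, with each other and with Dsp, so no order among Dsp and these claudins holds. In the WT alone, Cldn4 averaged 127 and Dsp 120 CPM per kilobase. The junctional adhesion molecule gene F11r stood at 99.4 CPM per kilobase and the desmosomal cadherin genes Dsg2 and Dsc2 at 91.0 and 68.6. Cldn12, Cldn8, Cldn15 and Cldn23 formed a middle range of 32.8, 23.2, 20.9 and 13.9 CPM per kilobase. Gjb1 at 22.3 and Gja1 at 13.9 CPM per kilobase were the highest of the connexins named here. The cadherins known from stratified epithelium, Dsg3, Dsc3, Dsg4 and Dsg1c, lay between 0.539 and 0.985 CPM per kilobase.

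**Figure D2:**
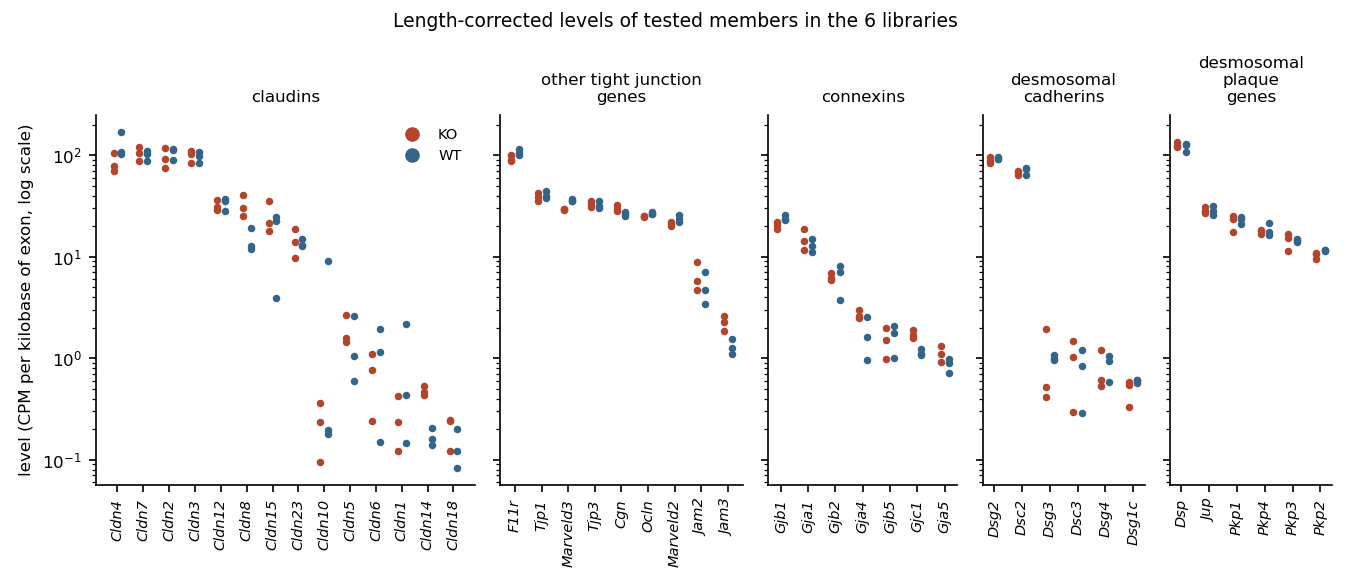
Level of tested members in every library, in CPM per kilobase of exon on a log scale, ordered within each role by the mean of the 6 libraries; each point is 1 library, with KO on the left and WT on the right of a gene. Cldn4, Cldn7, Cldn2 and Cldn3 share the top of the claudin panel, and Dsp, Dsg2 and Dsc2 stand above the other desmosomal genes.

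Of the 66 genes, 6 had no read in any library, namely Cldn11, Cldn16, Cldn25, Cldn34a, Dsg1a and Dsg1b. A count of 0 allows up to 0.052 CPM over the KO libraries together and 0.0347 CPM over the WT libraries together, counting error only. Another 14 fell below the filter with at most 27 reads in a library. They include Cldn9, Cldn13, Cldn17, Cldn19, Cldn20, Cldn22, Cldn24, Gja3, Gja6, Gja10, Gjb6, Gjc3 and Dsc1. The exons of Cldn22 lie wholly within those of Wwc2 on the opposite strand, and no source used here gives the strand setting of the counts.

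Among claudins, Cldn8 and Cldn14 were higher in every KO library, and Cldn4 was lower on average with overlapping groups. Cldn8, a sealing claudin of distal colon and of the kidney collecting duct, is a minus-strand gene of chromosome 16 (start 88560828, end 88563183, mm10). It measured 71.2, 59.3 and 94.4 CPM in KO replicates 1 to 3 and 30.03, 45.4 and 27.9 CPM in WT replicates 1 to 3. The lowest KO library stood above the highest WT library. Cldn8 averaged 75.0 ± 17.8 CPM in the KO and 34.4 ± 9.53 CPM in the WT (SD, n = 3 each), a 2.18-fold higher level in the KO. This is a log2 fold change of 1.12 ± 0.24 (standard error), with a 95% interval of 0.56 to 1.68. It did not pass edgeR's test (adjusted p = 0.330), whereas DESeq2 called it with an adjusted p of 0.0017. Adjusted p over all alternatives ranged from 0.0017 to 0.719, and the log2 fold change stayed between 0.92 and 1.37 when single libraries were left out. Relative to the abundant Cldn7 of the same library, the count ratio was 0.308, 0.289 and 0.555 in KO replicates 1 to 3 and 0.174, 0.225 and 0.129 in WT replicates 1 to 3. An exact two-sided permutation test of the log2 ratio gave p = 0.1, the smallest that 3 against 3 libraries allow, and 0.15 after Benjamini-Hochberg adjustment over 3 such ratios.

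Markers of mature colonocytes, the surface cells of the colon crypt, are given beside Cldn8. Of their 10 genes, 8 had a positive log2 fold change, 5 were higher at an unadjusted p under 0.05, against 6.63% of all genes, and 0 passed the test. Aqp8, a water channel gene and the one with the smallest p, measured 28.4, 24.2 and 37.5 CPM in KO replicates 1 to 3 and 1.44, 2.81 and 3.74 CPM in WT replicates 1 to 3. Car4, a carbonic anhydrase of these cells, measured 126, 87.2 and 160 CPM in KO replicates 1 to 3 and 5.43, 33.6 and 27.7 CPM in WT replicates 1 to 3. Both were apart between the groups. The 10 genes summed to 3261 to 5374 CPM in the KO and 2072 to 2799 CPM in the WT. Much of that sum was Muc3, a membrane mucin gene. The other 9 summed to 1496, 1348 and 1486 CPM in KO replicates 1 to 3. In WT replicates 1 to 3 they summed to 1491, 1141 and 1283 CPM, so the groups overlapped. Slc9a3, 1 of the 2 genes with a negative log2 fold change (−0.61), measured 475, 455 and 370 CPM in KO replicates 1 to 3. In WT replicates 1 to 3 it measured 1021, 471 and 487 CPM, most of the remaining sum in WT replicate 1. Of the 10 genes, 5 were higher in every KO library than in any WT library, against 9.43% of all genes. In such bulk samples, fewer cells of a type and less RNA per cell cannot be told apart. The part of mature colonocytes in the Cldn8 difference was not tested.

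Cldn14, known from the inner ear and kidney, was scarce. It had 20, 17 and 22 reads in KO replicates 1 to 3 and 13, 10 and 8 reads in WT replicates 1 to 3. These counts correspond to 0.991, 0.933 and 1.14 CPM in the KO and 0.436, 0.338 and 0.296 CPM in the WT. The groups did not overlap, with a log2 fold change of 1.5 (standard error 0.41, edgeR adjusted p = 0.345). Cldn23, a claudin of differentiated colon epithelium, had a log2 fold change of 0.06 with an interval of −0.48 to 0.59.

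Cldn4 and Cldn3 are neighbours on chromosome 5, with 39.3 kilobases between them. Both encode claudins of the colon epithelium. In mm10, Cldn4 is a minus-strand gene (start 134945119, end 134946934) and Cldn3 a plus-strand gene (start 134986214, end 134987472). The 250 bases before each start are shown because this pair stands close together in the genome and its levels are compared next. They come from RefSeq on GRCm38.p6 and are written 5′ to 3′ along the gene, at chr5:134946935-134947184 on the minus strand for Cldn4 and chr5:134985964-134986213 on the plus strand for Cldn3. Capitals mark matches, on either strand, to GGGCGG, the GC box of Sp and Krüppel-like factors, and to CAGGTG, an E-box known to bind Snail-type repressors.
Cldn4: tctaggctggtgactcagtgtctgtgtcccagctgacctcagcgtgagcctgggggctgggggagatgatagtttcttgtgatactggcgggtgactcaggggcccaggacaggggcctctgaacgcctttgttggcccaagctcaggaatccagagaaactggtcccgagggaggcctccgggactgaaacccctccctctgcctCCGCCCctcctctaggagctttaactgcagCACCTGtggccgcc
Cldn3: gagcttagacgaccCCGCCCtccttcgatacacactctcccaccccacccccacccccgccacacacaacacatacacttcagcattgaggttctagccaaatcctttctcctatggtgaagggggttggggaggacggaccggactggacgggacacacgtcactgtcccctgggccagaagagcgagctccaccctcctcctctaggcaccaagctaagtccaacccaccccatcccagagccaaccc
The GC box occurs once in each sequence, and the E-box occurs once in the Cldn4 sequence and not in that of Cldn3. Over all 32851 promoter windows of this length in the table, 32.7% hold the GC box and 17.2% hold the E-box. The Grainyhead core AACCGG and the TATA motif TATAAA match neither sequence, and 5.62% and 12.4% of all windows hold them. The motifs do not overlap each other here. Of the 66 genes, 40 were matched in the promoter table.

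Cldn4 measured 140, 189 and 127 CPM in KO replicates 1 to 3 and 309, 197 and 187 CPM in WT replicates 1 to 3. WT replicate 1 stood far above the rest, and KO replicate 2 lay just above WT replicate 3, so the groups overlapped. In log2 terms the KO was lower by a fold change of −0.60 (standard error 0.23, edgeR adjusted p = 0.430), and −0.34 without WT replicate 1. Cldn3 measured 137, 130 and 106 CPM in KO replicates 1 to 3 and 105, 122 and 135 CPM in WT replicates 1 to 3. Its values overlapped fully, with a log2 fold change of 0.04 and a 95% interval of −0.28 to 0.36. The count ratio of Cldn4 to Cldn3 was 1.02, 1.45 and 1.20 in KO replicates 1 to 3 and 2.94, 1.61 and 1.38 in WT replicates 1 to 3. The mean log2 ratio was 0.28 in the KO and 0.90 in the WT, and the exact permutation test gave p = 0.2 (adjusted p = 0.2).

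The other abundant claudins showed no difference beyond the spread between libraries. Cldn2, a pore for cations and water that marks crypt epithelium, measured 305, 250 and 387 CPM in KO replicates 1 to 3 and 295, 379 and 373 CPM in WT replicates 1 to 3. The groups overlapped, with a log2 fold change of −0.15 and an interval of −0.57 to 0.26. Cldn7, a claudin of the lateral membrane as well as the junction, measured 231, 205 and 170 CPM in KO replicates 1 to 3 and 172, 202 and 216 CPM in WT replicates 1 to 3. Its log2 fold change was 0.04, with an interval of −0.28 to 0.37. Cldn12 had −0.07, with an interval of −0.39 to 0.24. The intervals of Cldn2, Cldn3, Cldn7 and Cldn12 all exclude a 2-fold difference.

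In 3 claudins a single WT library stood apart. Cldn10, known from kidney and glands as a channel-forming claudin, measured 0.248, 0.603 and 0.930 CPM in KO replicates 1 to 3 and 0.469, 0.507 and 23.3 CPM in WT replicates 1 to 3. WT replicate 3 alone carried the difference, as the log2 fold change of −3.76 (edgeR adjusted p = 0.462) became 0.27 without it. Cldn1 and Cldn15 were chosen after their values were seen. Cldn1, a sealing claudin of skin and other epithelia, measured 0.595, 1.15 and 2.07 CPM in KO replicates 1 to 3 and 0.704, 2.10 and 10.6 CPM in WT replicates 1 to 3. WT replicate 3 was again highest. In that library 70 genes, 0.43% of those tested, stood at 5 or more times the next highest library, among them Cldn1 and Cldn10. The other libraries had between 0 and 4 such genes. The summed level of 12 squamous epithelium markers was 30.9 to 60.8 CPM in the KO and 35.8, 49.9 and 85.8 CPM in WT replicates 1 to 3, so it too was highest in WT replicate 3. That list includes Dsg3, 6 of its genes passed the filter, and its marker Sprr3 had no read in any library. Of the 6, Krt4 and Krt6a were highest in WT replicate 3, at 22.5 and 10.2 CPM. Krt4 was also lower in every KO library, at 1.19 to 2.82 CPM against 5.85 to 22.5 CPM in the WT. Its log2 fold change was −2.56 (edgeR adjusted p = 0.333). Krt10, Krt13, Krt14 and Dsg3 were each highest in a KO library. The part of such cells in the Cldn1 and Cldn10 values was not tested.

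Cldn15, a cation pore of intestinal epithelium, went the other way in WT replicate 1. It measured 74.7, 38.0 and 45.7 CPM in KO replicates 1 to 3 and 8.34, 47.9 and 52.2 CPM in WT replicates 1 to 3. WT replicate 1 lay far below the other libraries, which overlapped between the groups, and the interval of the log2 fold change was −0.88 to 1.97. Summed smooth muscle markers were also lowest in that library, at 385 CPM. So were the summed markers of mature colonocytes, endothelium, leukocytes and epithelium, at 2072, 269, 396 and 6882 CPM. Those of fibroblasts, squamous epithelium and enteric neurons and glia were not. The part of any of these cells in the Cldn15 values was not tested.

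**Figure D3:**
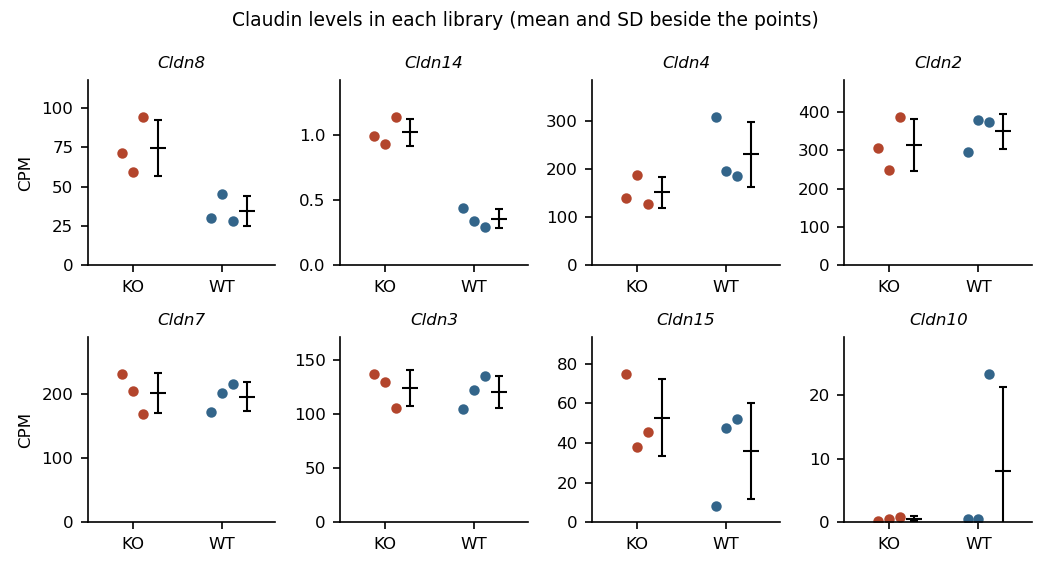
CPM of 8 claudins in each library, with replicates 1 to 3 from left to right within a group and the mean and SD (n = 3) beside them; each panel has its own axis starting at 0. All 3 KO libraries exceed all 3 WT libraries for Cldn8 and Cldn14, while WT replicate 3 alone is high for Cldn10 at 23.3 CPM and WT replicate 1 alone is low for Cldn15 at 8.34 CPM.

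Outside the claudins, 8 of 10 tight junction genes had a log2 fold change within 0.3 of 0, with 6 of 10 negative and a median of −0.08. The transmembrane genes of the occludin family were slightly lower in every KO library. Marveld3, which encodes the MARVEL-domain relative of occludin, is a minus-strand gene of chromosome 8 (start 109947914, end 109962203, mm10). It measured 96.2, 96.9 and 95.5 CPM in KO replicates 1 to 3 and 120, 117 and 117 CPM in WT replicates 1 to 3. The libraries of each group lay within a few CPM of each other and the groups were well apart. The log2 fold change of −0.30 (standard error 0.07) had a 95% interval of −0.47 to −0.12. Marveld3 did not pass edgeR's test (adjusted p = 0.334), and DESeq2 called it narrowly, with an adjusted p of 0.046. Over all alternatives its adjusted p ranged from 0.046 to 0.719 and its log2 fold change from −0.34 to −0.28.

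Marveld2, known as tricellulin for its place where 3 cells meet, measured 74.4, 71.6 and 68.0 CPM in KO replicates 1 to 3 and 86.4, 74.9 and 80.2 CPM in WT replicates 1 to 3. The groups were apart by less than 1 CPM, and the log2 fold change was −0.17 (edgeR adjusted p = 0.533). Ocln, which encodes occludin, measured 105, 107 and 106 CPM in KO replicates 1 to 3 and 112, 116 and 112 CPM in WT replicates 1 to 3. The replicates of Ocln were close, yet its log2 fold change of −0.09 had an interval of −0.27 to 0.08. Within a library, the count ratio of Marveld3 to Ocln was 0.918, 0.904 and 0.897 in KO replicates 1 to 3 and 1.08, 1.02 and 1.04 in WT replicates 1 to 3. The ratio was lower in all 3 KO libraries (exact permutation p = 0.1, adjusted p = 0.15).

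F11r, the junctional adhesion molecule of epithelium and platelets, measured 233, 265 and 240 CPM in KO replicates 1 to 3 and 306, 265 and 280 CPM in WT replicates 1 to 3. KO replicate 2 and WT replicate 2 were almost equal, so the lack of overlap is marginal. Its log2 fold change was −0.21 with an interval of −0.42 to 0.01 (edgeR adjusted p = 0.481). Jam3, a junctional adhesion molecule known from endothelium and smooth muscle, was in contrast higher in the KO. It measured 7.28, 5.93 and 8.32 CPM in KO replicates 1 to 3 and 4.02, 3.55 and 5.0 CPM in WT replicates 1 to 3. The groups were apart, with a log2 fold change of 0.78, a standard error of 0.24 and an edgeR adjusted p of 0.374. An antisense gene, Gm48796, overlaps exons of Jam3 on the other strand, so part of its reads are uncertain. Jam2, an adhesion molecule of endothelium and other cells, overlapped between the groups, with a log2 fold change of 0.35 and an interval of −0.39 to 1.09.

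Scaffold genes beneath the strand had small log2 fold changes. Tjp1, the first zonula occludens scaffold, measured 276, 301 and 331 CPM in KO replicates 1 to 3 and 345, 308 and 298 CPM in WT replicates 1 to 3. Its groups overlapped. The log2 fold change of Tjp1 was −0.07, with an interval of −0.30 to 0.17, and that of Tjp3, a related scaffold gene, was 0.03, with an interval of −0.20 to 0.26. Cgn, which encodes the cytoplasmic protein cingulin, measured 193, 171 and 179 CPM in KO replicates 1 to 3 and 151, 160 and 165 CPM in WT replicates 1 to 3. It was higher in every KO library by a small margin, with a log2 fold change of 0.19 and an interval of −0.01 to 0.39 (edgeR adjusted p = 0.474).

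**Figure D4:**
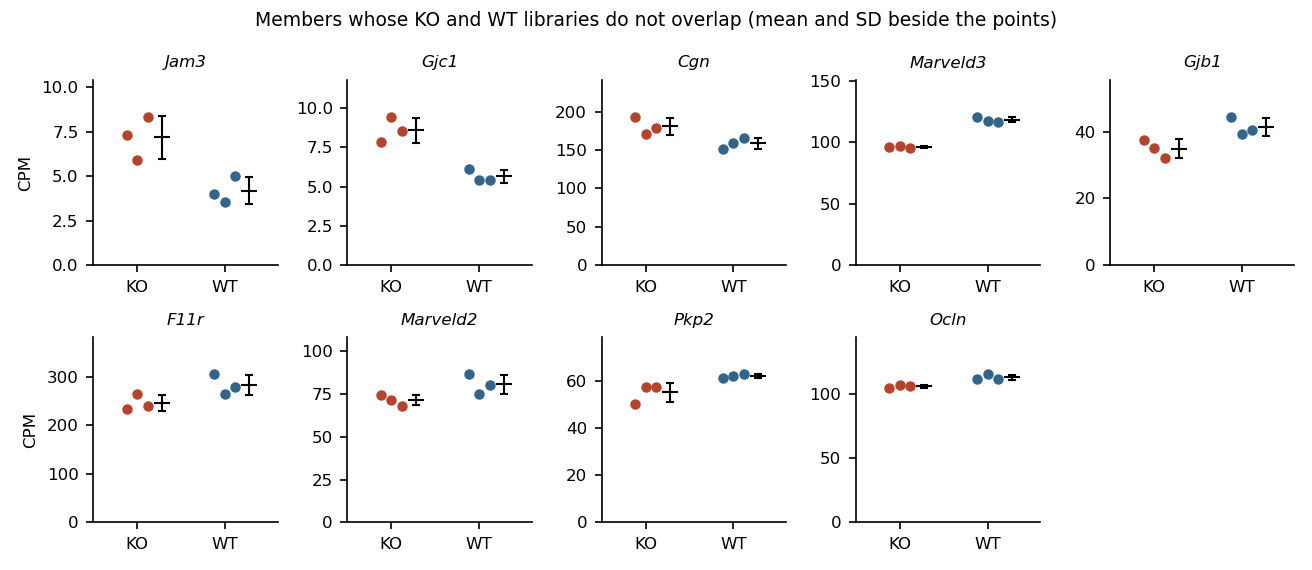
CPM of members outside the claudins whose KO and WT libraries do not overlap, with replicates 1 to 3 from left to right within a group and the mean and SD (n = 3) beside them; each axis starts at 0. Jam3, Gjc1 and Cgn are higher in all KO libraries, and the other 6 are lower, with Marveld3 at 95.5 to 96.9 CPM in the KO and 117 to 120 CPM in the WT.

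Of the 10 tested connexins, 7 had a positive log2 fold change, against 47.9% of all genes, with a median of 0.29, and 0 of them passed the test. Gjc1, a connexin of smooth muscle and of cardiac conduction tissue, is a minus-strand gene of chromosome 11 (start 102799579, end 102819700, mm10). It measured 7.83, 9.44 and 8.52 CPM in KO replicates 1 to 3 and 6.10, 5.45 and 5.41 CPM in WT replicates 1 to 3. The groups were apart, with averages of 8.60 ± 0.806 CPM in the KO and 5.65 ± 0.389 CPM in the WT (SD, n = 3 each). Its log2 fold change of 0.60 (standard error 0.18) had an interval of 0.18 to 1.03 (edgeR adjusted p = 0.363), and it stayed between 0.53 and 0.67 when single libraries were left out. Gja4 and Gja5, connexins known from arteries, had log2 fold changes of 0.65 and 0.36, and their groups overlapped. Their intervals of −0.22 to 1.52 and −0.20 to 0.92 include 0.

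Markers of muscle, vessels and other cells are given beside these values. The 12 smooth muscle markers summed to 1667, 1031 and 1180 CPM in KO replicates 1 to 3 and 385, 934 and 840 CPM in WT replicates 1 to 3. The 12 endothelial markers summed to 292 to 403 CPM in the KO and 269 to 329 CPM in the WT. In each list 11 of the 12 had a positive log2 fold change, against 47.9% of all genes. At an unadjusted p under 0.05 in edgeR, 8 smooth muscle and 3 endothelial markers were higher, against 6.63% of all genes. In 7 smooth muscle and 3 endothelial markers every KO library stood above every WT library, against 9.43% of all genes. None of these genes passed the test, and all were detected. Within the WT, Gjc1 was slightly higher in replicate 1, at 6.10 CPM against 5.45 and 5.41 CPM, and the smooth muscle sum was lowest there. Gja4 was lowest in WT replicate 3 (1.63 CPM) and Jam3 in WT replicate 2 (3.55 CPM). Such orders of 3 libraries were noted after the values were seen and cannot decide a cause. Fibroblast markers summed to 1803 to 2511 CPM in the KO and 1250 to 1839 CPM in the WT, and 9 leukocyte markers to 1058 to 3306 CPM in the KO and 396 to 774 CPM in the WT. Most of the leukocyte sum was Jchain, a plasma cell gene, except in WT replicate 1, where Jchain measured 186 CPM and the other 8 genes 210 CPM. Those 8 summed to 199 to 331 CPM in the KO and 204 to 246 CPM in the WT. Enteric neuron and glia markers summed to 45.5 to 53.4 CPM in the KO and 63.5 to 80.3 CPM in the WT. Without Ret, a receptor gene and the most abundant of that list, they summed to 15.03 to 22.1 CPM in the KO and 10.5 to 18.6 CPM in the WT. Muc3, Slc9a3, Jchain and Ret were singled out after their values were seen. No gene of these lists passed the test. The part of muscle, vessels or other cells in the Gjc1, Gja4 and Jam3 values was not tested.

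Gjb1, best known as a connexin of liver and myelinating glia, was lower in the KO. It measured 37.6, 35.0 and 31.9 CPM in KO replicates 1 to 3 and 44.3, 39.3 and 40.5 CPM in WT replicates 1 to 3. The groups were apart, with a log2 fold change of −0.25 and an interval of −0.51 to 0.01 (edgeR adjusted p = 0.477).

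Gja1, the most widely expressed connexin in mammalian tissues, measured 119, 147 and 191 CPM in KO replicates 1 to 3 and 152, 131 and 115 CPM in WT replicates 1 to 3. KO replicate 3 was the highest library and the groups overlapped. The log2 fold change was 0.21, with an interval of −0.23 to 0.64, and 0.01 without KO replicate 3. Gjb2, often found together with Gjb1 in liver, measured 14.1 to 16.7 CPM in the KO and 8.95 to 19.6 CPM in the WT. Its log2 fold change was −0.0013, with an interval of −0.67 to 0.66.

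All 12 tested genes, 6 cadherins and 6 plaque genes, had a log2 fold change within 0.3 of 0, against 68.5% of all genes tested. The median log2 fold change of the 6 cadherins was −0.07, and −0.35 without KO replicate 2. Dsg2 and Dsc2 are the abundant pair of simple epithelia. Dsg2 measured 686, 786 and 728 CPM in KO replicates 1 to 3 and 794, 756 and 764 CPM in WT replicates 1 to 3. Dsc2 measured 338, 357 and 368 CPM in KO replicates 1 to 3 and 336, 391 and 382 CPM in WT replicates 1 to 3. Both overlapped between the groups. The log2 fold change of Dsg2 was −0.07 with an interval of −0.29 to 0.14, and that of Dsc2 was −0.06 with an interval of −0.28 to 0.15.

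The cadherins of stratified epithelium were low and variable. Dsg3, which is a squamous marker too, measured 2.92, 13.7 and 3.62 CPM in KO replicates 1 to 3 and 7.51, 6.90 and 6.63 CPM in WT replicates 1 to 3. KO replicate 2 lay above all WT libraries and the other KO libraries below them, which left an interval of −1.37 to 1.2505 for the log2 fold change of −0.06, which became −1.10 without KO replicate 2. Dsc3 ranged from 1.602 to 7.96 CPM in the KO and from 1.56 to 6.56 CPM in the WT, with a log2 fold change of 0.25. For Dsg4 and Dsg1c, cadherins of hair and epidermis, the log2 fold changes were −0.12 and −0.30. The intervals of Dsg3 and Dsc3 both include a 2-fold difference in either direction.

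The plaque genes tie the cadherins to keratin. Dsp, which encodes desmoplakin, measured 1162, 1179 and 1286 CPM in KO replicates 1 to 3 and 1217, 1231 and 1044 CPM in WT replicates 1 to 3. Jup, which encodes plakoglobin, measured 199, 180 and 171 CPM in KO replicates 1 to 3 and 181, 165 and 201 CPM in WT replicates 1 to 3. Their groups overlapped, with log2 fold changes of 0.05 (interval −0.20 to 0.30) and 0.01 (interval −0.24 to 0.26). Pkp1, the plakophilin best known from skin, measured 126, 117 and 88.8 CPM in KO replicates 1 to 3 and 124, 104 and 119 CPM in WT replicates 1 to 3, with a log2 fold change of −0.07. Pkp2, the plakophilin of heart and simple epithelium, measured 50.5, 57.7 and 57.6 CPM in KO replicates 1 to 3 and 61.4, 62.0 and 62.9 CPM in WT replicates 1 to 3. It was lower in every KO library, with a log2 fold change of −0.17 and an interval of −0.39 to 0.06 (edgeR adjusted p = 0.542). Pkp3 and Pkp4 had log2 fold changes of −0.000079 and −0.07.

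Other genes of cell contacts, taken from lists written from general knowledge, gave 0 genes past the test. Of 12 adherens junction genes, 5 were positive and 7 negative, with a median log2 fold change of −0.02. Ctnnb1, which encodes beta-catenin, stood first by unadjusted p at −0.21 (edgeR adjusted p = 0.522), and Nectin4, a cell adhesion receptor, had −0.35 (adjusted p = 0.570). Of 21 tested polarity and tricellular genes, 7 were positive and 14 negative. Marveld1, a further MARVEL-domain gene, had 0.56 (adjusted p = 0.397), and Lsr, which encodes the tricellular protein angulin, had −0.28 (adjusted p = 0.459). Among 9 desmosome partners and hemidesmosome genes the median was 0.02. Evpl, which encodes envoplakin, had 0.32 (adjusted p = 0.396) and Perp, a desmosomal membrane protein gene, had 0.19 (adjusted p = 0.528). Of 7 other connexins and pannexins, Panx1 alone was tested, at 0.01.

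Of 16 transcription factor and nuclear receptor genes linked to junction expression, 14 had a positive log2 fold change, against 47.9% of all genes, with a median of 0.30, and 0 passed the test. At an unadjusted p under 0.05, 4 of the 16 were higher, against 6.63% of all genes, and 0 were lower, against 4.12%. The 4 were Klf4, Vdr, Nr3c2 and Zeb2. The list is not limited to activators. It also holds the Snail-type repressor genes Snai1 and Snai2, which had log2 fold changes of 0.10 and 0.22. Zeb1 and Zeb2, further repressor genes of the list, had log2 fold changes of 0.41 and 0.48. Klf4, a factor of differentiated colon epithelium, measured 316, 226 and 281 CPM in KO replicates 1 to 3 and 75.7, 158 and 132 CPM in WT replicates 1 to 3. Vdr, the vitamin D receptor gene, measured 121, 116 and 163 CPM in KO replicates 1 to 3 and 29.6, 72.6 and 65.7 CPM in WT replicates 1 to 3. Both were apart between the groups and both were lowest in WT replicate 1. Their log2 fold changes were 1.17 for Klf4 and 1.254 for Vdr, with edgeR adjusted p of 0.334 and 0.343.

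**Figure D5:**
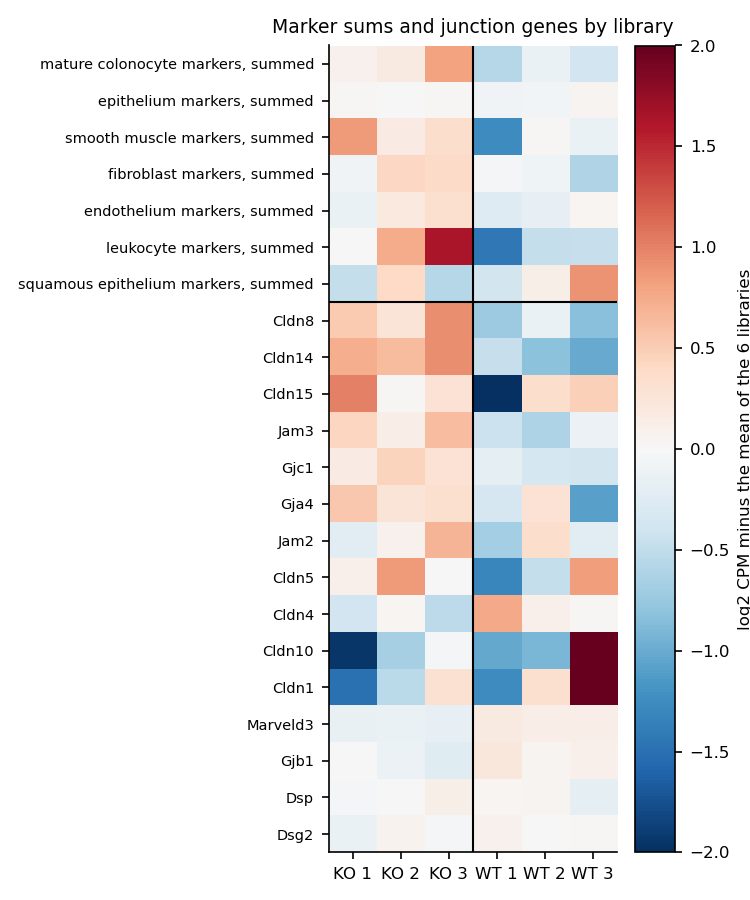
Log2 CPM minus the mean of the 6 libraries, for summed marker lists (above the line) and junction genes chosen after their values were seen (below it), with KO libraries left and WT libraries right. Epithelium markers, Dsp and Dsg2 are near 0 throughout, Cldn8 and the summed smooth muscle markers are higher in KO libraries, and WT replicate 3 is alone in Cldn10 and Cldn1.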

How the data were processed

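For each of the 6 libraries the authors deposited raw read counts by gene symbol, as whole numbers in a table without a header. Per the submitters' processing notes the mm10 build, TopHat2, edgeR and limma were used, with no version or role. No source used here gives the counter, its strand setting or the annotation. The main test was the quasi-likelihood test (edgeR 4.0.16 in R 4.3.3), fitted to the 6 libraries with a group term alone, TMM scaling, filterByExpr and two-sided tests. Benjamini-Hochberg adjustment ran over all 16281 genes tested, with a threshold of 0.05. Library sizes were scaled by TMM before CPM were computed from the counts. Exon lengths and positions come from GENCODE M21 on GRCm38, the assembly that mm10 denotes. Intervals are 95% intervals of the log2 fold change from the same fit. The fit was also run on counts simulated from the means and dispersions of these data. Such a run cannot check the spread between real tumours. Alternatives used DESeq2 1.42.0, limma-voom (limma 3.58.1), other scalings and filters, a replicate block and leaving out single libraries. DESeq2 was run on the genes left by the same filter.

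The members, gene lists and tests were chosen with earlier results of these data known. Named genes are tested members past the test or with groups that do not overlap, the 3 most abundant of each role, and, among those higher and among those lower, the 5 of lowest unadjusted p. For other lists, the 2 genes with the smallest unadjusted p are named, and further genes of these lists were named with their values known. Members given outside this rule, chosen with their values known, are Cldn1, Cldn3, Cldn12, Cldn15, Cldn23, Jam2, Tjp3, Gja4, Gja5, Gjb2, Dsc3, Dsg4, Dsg1c, Pkp3 and Pkp4. Marker sums without the most abundant gene of a list were added after seeing the data. Libraries within a group were further apart than counting noise (chi-square per degree of freedom 21.0 to 104), so each was kept. Some of the genes are not reported here by name, though they count in the totals. Sequences come from RefSeq on GRCm38.p6.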

Additional observations from a re-analysis of the deposited data

How the results depend on the processing

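No member passed edgeR's test under any of the alternative scalings, filters, the replicate block or the removal of 1 library, and none passed limma-voom. DESeq2 called 246 genes higher and 91 lower in the KO, among them 1 member higher (Cldn8, log2 fold change 1.12) and 1 lower (Marveld3, −0.29). Removing single libraries gave 0 to 1 genes higher, the 1 without WT replicate 3. Of 25 named members, 18 kept their sign in each of the 15 alternatives in which they were tested. Cldn14 was not tested under the CPM filter. Relative to the summed epithelial markers, Jup turned to −0.028, and the medians moved to −0.035 for all members and −0.12 for other tight junction genes. Under the filter on CPM (1 or more in 3 libraries), the median of members was −0.026. Removing single libraries gave ranges of −4.32 to 0.27 for Cldn10, −0.061 to 0.15 for Cldn7, −1.10 to 0.31 for Dsg3, −0.020 to 0.097 for Dsp, −0.057 to 0.085 for Jup, −0.16 to 0.068 for Pkp1 and −0.14 to 0.0014 for Tjp1. The same ranges were −0.026 to 0.058 for the median of all members, −0.031 to 0.14 for claudins, 0.21 to 0.42 for connexins, −0.35 (without KO replicate 2) to 0.011 for desmosomal cadherins, −0.087 to 0.031 for plaque genes and −0.11 to −0.043 for other tight junction genes. The cause was not tested.

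With the replicate number as a block, 0 genes and 0 members passed and the member median was −0.0019. Same-numbered libraries did not deviate together (correlations −0.147, −0.175 and −0.0734), so the numbers were not taken as pairs. Low read counts limit Cldn14 and Cldn18, whose intervals are wide. The cadherins of stratified epithelium had wide intervals too. Of these, Dsg3 and Dsc3 had 59 to 249 and 31 to 194 reads in a library, and their KO libraries lay far apart.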
